A study of Mus musculus with 10 samples.

Results

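Among the genes tested, Iyd, Gal, Vtn, Hamp2 and Tmed11 are the 5 whose RNA fell most in KSR23 pancreas without overlap between the groups. They are 5 of 24062 genes in the count files and 5 of the 13882 that reached 5 counts in each library and were tested. Genes under this filter are not ranked here, and 12 of them had larger falls than Tmed11 without overlap. The study compared the pancreas of newborn mice at postnatal day 5, with 5 libraries from WT mice and 5 from KSR23 mice, to ask whether the pancreatic transcriptome differs in newborns with raised IL-23. KSR23 mice are C57BL/6 mice that carry the R23 allele, in which the p19 and p40 subunits of IL-23 follow a floxed stop cassette in the ROSA26 locus, together with hK14-cre, which expresses Cre recombinase under the human keratin 14 promoter, so that IL-23 is made in keratinocytes. The WT mice were control littermates. The RNA came from whole pancreas, so a lower level can mean fewer cells of a type or less RNA per cell, and these cannot be told apart in such samples. The study counted 5 mice per group, so the errors below are those between mice, each with 1 library.

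The members were chosen by their fold change in this very contrast, so their falls are described here and not tested. In the fit across all genes, a gene was called when its adjusted p was under 0.05. In that fit 8.31% of all genes tested were called lower without overlap of their log2 CPM (read counts per 1000000 on TMM-scaled library sizes) between groups, and 1.36% did so with a log2 fold change under -1. Nothing is read from the presence of the 5 genes among these, since the rule placed them there.

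The 5 genes are known for different roles. Iyd encodes iodotyrosine deiodinase, a membrane-bound flavoenzyme that removes iodide from iodotyrosines so that the thyroid can use it again. Gal encodes the precursor of galanin, a neuropeptide of nerve and endocrine cells that is known to restrain insulin release in islets. Vtn encodes vitronectin, an adhesive glycoprotein of plasma and matrix that binds integrins. Hamp2 encodes a hepcidin. The mouse has a pair of hepcidin genes, of which Hamp gives the liver hormone that removes the iron exporter ferroportin from cell surfaces, while Hamp2 is known to be expressed in pancreas as well as liver. Tmed11 encodes a member of the p24 family, transmembrane proteins that cycle between the endoplasmic reticulum and the Golgi and help to load cargo into transport vesicles.

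Iyd had the largest fall of the 5 genes. Its level in WT libraries 1 to 5 was 13.6, 16.4, 15.5, 17.8 and 14.6 CPM. In KSR23 libraries 1 to 5 it was 1.06, 1.18, 1.73, 0.796 and 1.30 CPM. All 5 KSR23 libraries lay far under all 5 WT libraries, and the lowest WT value was 7.86 times the highest KSR23 value. The means were 15.6 ± 1.61 CPM in WT and 1.21 ± 0.345 CPM in KSR23 (SD, n = 5), and the log2 fold change was -3.72 (SE 0.16), a level 13.2-fold lower. Between 389 and 551 reads stood behind each WT value, but only 31 to 73 behind each KSR23 value.

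Gal had the widest gap between the groups, between their nearest libraries. WT libraries 1 to 5 held 76.1, 63.4, 66.3, 64.4 and 64.3 CPM. The KSR23 libraries held 6.24, 6.31, 4.47, 6.32 and 5.23 CPM. WT replicate 1 stood above the other WT libraries, KSR23 replicate 3 was the lowest of its group, and the lowest WT and the highest KSR23 library lay 3.32 apart on the log2 CPM scale. The mean went from 66.9 ± 5.26 CPM in WT to 5.71 ± 0.832 CPM in KSR23 (SD, n = 5), with a log2 fold change of -3.54 (SE 0.10), or 11.6-fold lower.

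Vtn was the most abundant of the 5 genes. Its values in WT libraries 1 to 5 were 292, 255, 299.6, 321 and 260.4 CPM. Its values in KSR23 libraries 1 to 5 were 23.4, 27.4, 28.5, 24.2 and 32.6 CPM. KSR23 replicate 5 was the highest of its group and the lowest WT library was 7.84 times above it. The mean was 286 ± 27.7 CPM in WT and 27.2 ± 3.68 CPM in KSR23 (SD, n = 5), and the log2 fold change was -3.39 (SE 0.10), or 10.5-fold lower. In WT pancreas Vtn ranked 141 of 13882 genes by mean CPM, and in KSR23 pancreas it ranked 3401.

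Hamp2 was near Iyd in level and varied more within WT. WT libraries 1 to 5 held 17.2, 12.6, 11.9, 20.2 and 16.9 CPM. KSR23 libraries 1 to 5 held 1.21, 1.30, 2.07, 1.77 and 1.36 CPM. WT replicates 2 and 3 were low and WT replicate 4 high, and the groups were still apart by a factor of 5.74 between the lowest WT and the highest KSR23 library. The means were 15.7 ± 3.48 CPM and 1.54 ± 0.364 CPM (SD, n = 5), with a log2 fold change of -3.39 (SE 0.18).

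Tmed11 was the most variable of the 5 genes in KSR23 and the steadiest in WT. WT libraries 1 to 5 held 50.3, 56.1, 57.0, 55.8 and 59.3 CPM. KSR23 libraries 1 to 5 held 5.41, 2.58, 6.82, 8.38 and 3.91 CPM. KSR23 replicate 4 was high and KSR23 replicate 2 low, a range of 3.25-fold, against 1.18-fold within WT. The means were 55.7 ± 3.34 CPM and 5.42 ± 2.30 CPM (SD, n = 5), and the log2 fold change was -3.38 (SE 0.20).

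**Figure D1:**
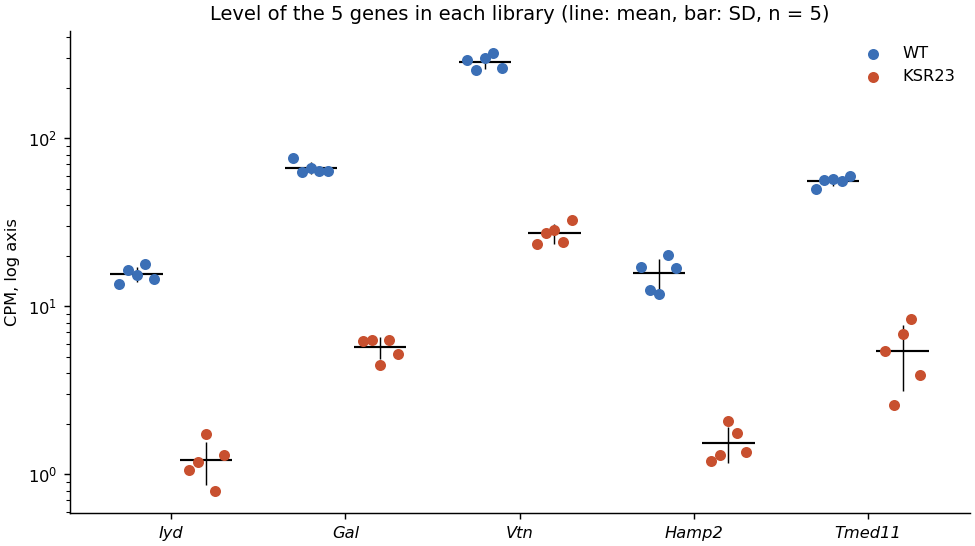
CPM on a log axis for each of the 5 genes in 5 WT libraries (blue) and 5 KSR23 libraries (red), in replicate order, with the mean as a line and the SD as a bar. For Gal, the lowest WT value of 63.4 CPM lies above the highest KSR23 value of 6.32 CPM, and Tmed11 shows the widest spread among KSR23 libraries, from 2.58 to 8.38 CPM.

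No single KSR23 library was the lowest for all 5 genes. The lowest one was replicate 4 for Iyd, replicate 3 for Gal, replicate 1 for Vtn and Hamp2, and replicate 2 for Tmed11. When each library was left out in turn, the log2 fold change of Iyd stayed between -3.83 and -3.60 and that of Gal between -3.57 and -3.48. That of Vtn stayed between -3.47 and -3.35, that of Hamp2 between -3.48 and -3.28, and that of Tmed11 between -3.62 and -3.21. Without KSR23 replicate 5, Cckbr took the place of Tmed11 among the first 5.

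The spread between libraries was larger than counting error for each of the 5 genes. In KSR23 libraries the coefficient of variation of Tmed11 was 42.4%, while counting error alone gives 7.71%. That of Iyd was 28.4% against 16.5%, and that of Hamp2 was 23.7% against 14.6%. Gal varied by 14.6% against 7.19%, and Vtn by 13.5% against 3.36%. In WT libraries the coefficient of variation ran from 5.99% for Tmed11 to 22.1% for Hamp2. The libraries carry no molecular identifiers, so PCR duplicates count as reads and counting error is a lower limit of the technical error.

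Per kilobase of transcript, which allows genes to be compared, the level in WT was highest for Vtn at 164 ± 15.9 CPM per kb, followed by Gal at 84.9 ± 6.68, Tmed11 at 73.0 ± 4.37, Hamp2 at 36.0 ± 7.97 and Iyd at 9.86 ± 1.02 CPM per kb (SD, n = 5). No neighbours in that order overlapped in WT. However, 177 of the 763 exon bases of Tmed11 are shared with the gene Vmn2r8, and reads there may have been left uncounted as ambiguous. The level of Tmed11 was not corrected for this, so its order with Gal is not settled. In KSR23 the order was the same by mean, from Vtn at 15.6 ± 2.11 CPM per kb to Iyd at 0.769 ± 0.219 CPM per kb. There Gal, at 7.25 ± 1.06, and Tmed11, at 7.10 ± 3.01, overlapped, and Gal was the higher in 3 of 5 libraries. Tmed11 and Hamp2, at 3.52 ± 0.834 CPM per kb, overlapped in range as well, although Tmed11 was the higher in all 5 libraries.

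The gap at the edge of the rule was about as large as the errors. Cckbr, which encodes a receptor for cholecystokinin and gastrin, came next after Tmed11 at -3.38 (SE 0.20) with a log2 fold change of -3.11 (SE 0.21), from 11.3 ± 2.04 CPM in WT to 1.27 ± 0.481 CPM in KSR23 (SD, n = 5). It was followed by Ctrl, a chymotrypsin-like protease of zymogen granules, at -2.90, Klhdc8a at -2.80, the uroplakin gene Upk1a at -2.79 and Fbp2, a fructose-bisphosphatase of muscle, at -2.74. Acta1 fell by 3.27 on the log2 scale but its groups overlapped, so it is not part of the ranking. It is the one gene between Tmed11 and Cckbr and was named after its value was seen. A further 12 genes had larger falls than Tmed11 when no filter on low counts was used. These 12 genes had low counts, at most 87 in any WT library, and 2 of the genes were at 0 in all KSR23 libraries. The filter asks for at least 5 counts in every library, so it leaves out genes that fall under that count in KSR23. Reads that aligned at more than 1 place were not counted.

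**Figure D2:**
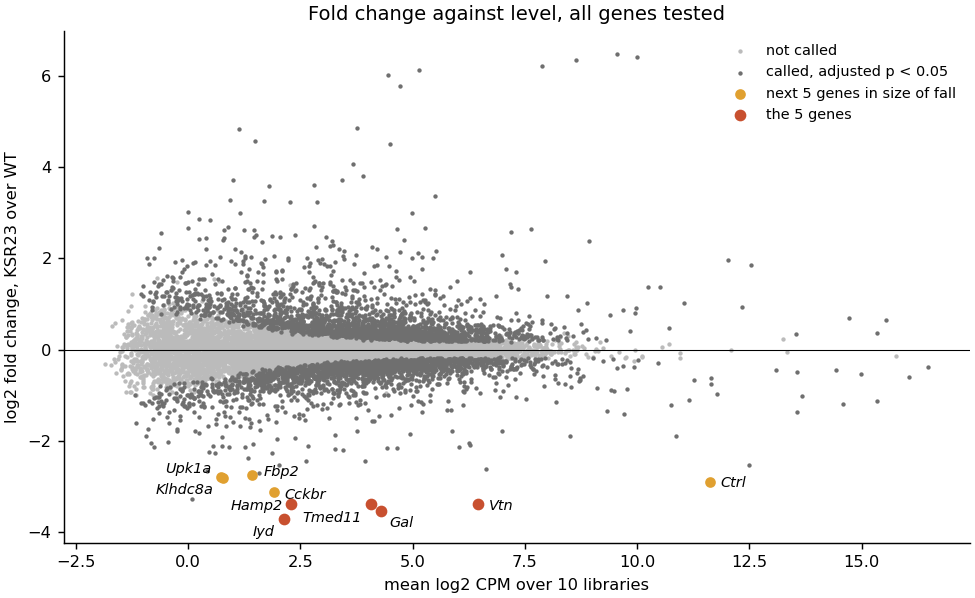
Log2 fold change of KSR23 over WT against mean log2 CPM over 10 libraries for 13882 genes, with the 5 genes in red, the next 5 in size of fall in orange, and genes with an adjusted p under 0.05 in dark grey. The 5 genes lie from -3.72 to -3.38, at levels from the lower to the upper part of the range, and Ctrl at -2.90 is far more abundant than all of them.

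By the measure of likeness used here, the root mean square difference of log2 CPM over the 10 libraries after each gene was set to its own WT mean, the genes nearest to each member were mostly the other members. The difference was 0.28 for Gal and Vtn, 0.29 for Iyd and Vtn, 0.30 for Hamp2 and Vtn, and 0.41 for Hamp2 and Tmed11. The only gene outside the 5 among the 3 nearest of any member was Ctrl, second nearest to Hamp2 at 0.37. The size of the fall enters this measure, so the rule itself brings the members close together.

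The 250 bases before the start site, shown for the 4 members with a RefSeq promoter on GRCm38.p6 and for Hamp, let the promoters of genes that fell together, and of a paralog that was close to 0 in both groups, be compared. All are written 5′ to 3′ on the gene's own strand and come from RefSeq. The start sites of GENCODE M21, whose gene spans are given further on, differ in part: it places the last 34 of these bases in an exon of Iyd, the last 29 in an exon of Vtn and the last 3 in an exon of Hamp, and all 250 bases of Hamp2 in an intron of a longer transcript. Capitals mark matches on either strand to TTCNNNGAA, the letters bound by dimers of STAT proteins, to TGGGAA, the core bound by RBPJ and its pancreatic relative RBPJL, to TATAAA, the TATA box, and to GGCGCC, the letters of the BMP response element of hepcidin promoters. The motifs were chosen with the sequences in view.
Iyd, chr10:3540024-3540273, plus strand: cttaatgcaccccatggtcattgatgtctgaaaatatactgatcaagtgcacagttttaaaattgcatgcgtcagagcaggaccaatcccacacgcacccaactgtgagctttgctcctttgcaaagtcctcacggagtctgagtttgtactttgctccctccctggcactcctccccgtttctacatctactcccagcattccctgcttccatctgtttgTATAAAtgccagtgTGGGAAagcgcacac
Gal, chr19:3414545-3414794, minus strand: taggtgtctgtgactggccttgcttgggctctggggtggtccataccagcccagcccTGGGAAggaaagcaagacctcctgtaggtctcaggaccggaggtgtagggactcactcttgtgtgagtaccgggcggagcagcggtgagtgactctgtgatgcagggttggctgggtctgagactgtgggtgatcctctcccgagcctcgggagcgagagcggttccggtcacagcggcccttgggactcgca
Vtn, chr11:78498870-78499119, plus strand: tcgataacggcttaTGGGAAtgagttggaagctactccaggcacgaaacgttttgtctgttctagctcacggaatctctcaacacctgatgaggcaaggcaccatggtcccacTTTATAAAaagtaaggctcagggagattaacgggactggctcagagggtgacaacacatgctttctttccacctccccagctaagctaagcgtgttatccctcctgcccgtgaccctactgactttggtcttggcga
Hamp2, chr7:30924182-30924431, minus strand: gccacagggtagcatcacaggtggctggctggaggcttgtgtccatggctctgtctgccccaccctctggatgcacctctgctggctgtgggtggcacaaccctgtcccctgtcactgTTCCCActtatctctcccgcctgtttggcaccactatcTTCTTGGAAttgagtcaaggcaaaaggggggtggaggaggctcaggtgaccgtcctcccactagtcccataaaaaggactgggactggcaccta
Hamp, chr7:30944030-30944279, minus strand: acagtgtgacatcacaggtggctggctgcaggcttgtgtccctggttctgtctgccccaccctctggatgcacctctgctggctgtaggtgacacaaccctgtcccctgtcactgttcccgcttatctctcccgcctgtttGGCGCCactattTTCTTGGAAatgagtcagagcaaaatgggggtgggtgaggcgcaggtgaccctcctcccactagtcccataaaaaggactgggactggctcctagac

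TGGGAA was found in all 4 member promoters shown, from position -15 in Iyd to position -236 in Vtn. Positions count back from the base before the start site at -1 and give the first base of the match. Of 32851 RefSeq promoters of the same length, 21.6% hold TGGGAA. The motif was chosen with these sequences in view, so nothing is read from its presence in all 4. By GENCODE M21 the Iyd match lies in an exon and the Hamp2 match in an intron. TATAAA was found at -29 in Iyd, in bases that GENCODE M21 places in an exon. In Vtn it was found on both strands with overlapping letters, at -137 and -135. TATAAA is held by 12.4% of promoters, and whether these matches act as TATA boxes was not tested. TTCNNNGAA occurs as TTCTTGGAA at -94 in Hamp2 and at -97 in Hamp, and 7.02% of promoters hold it. GGCGCC is in the Hamp promoter at -109 and was not found in that of Hamp2, and 9.59% of promoters hold it. The promoters of Hamp2 and Hamp share 227 of 247 aligned bases, or 91.9%.

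Hamp2 and Hamp could be told apart in the counts. Hamp was at 0 to 2 counts in every library, 7 in all. Over the Hamp2 transcript of 437 bases, 350 of 363 windows of 75 bases, the read length, occur in no other annotated gene, and the remaining windows match Hamp. The gene lies at chr7:30922372-30924681 on the minus strand (GRCm38), and 89 of its 583 exon bases are also covered on the other strand by the long noncoding RNA Gm44662. The kit does not mark strand, so reads from these bases cannot be assigned to a strand.

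Gene models were taken from GENCODE M21 (GRCm38). Iyd lies at chr10:3540240-3554877 on the plus strand, with a transcript of 1579 bases in 5 exons. Gal lies at chr19:3409915-3414544 on the minus strand, with a transcript of 788 bases in 6 exons. Vtn lies at chr11:78499091-78502324 on the plus strand, with a transcript of 1744 bases in 8 exons, and all 75-base windows of these 3 transcripts are unique. Tmed11 lies at chr5:108777235-108795363 on the minus strand, and 177 of its 763 exon bases are shared with the vomeronasal receptor gene Vmn2r8 on the same strand. Only 84.9% of its 75-base windows are unique, and Vmn2r8 was at 0 counts in every library.

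Genes that work with the members moved in both directions. Of 96 tested genes in 5 lists of such genes, which exclude the members, 26 were called lower, 26 higher and 44 were not called (edgeR's quasi-likelihood test, Benjamini-Hochberg adjusted p under 0.05 over all genes). The background is 14.8% of all genes tested called lower and 16.2% called higher, and the median log2 fold change of all genes was -0.01. Scaling each library by its total count alone shifted this split, and 1164 genes were called lower and 3072 higher instead of 2049 and 2250, and the median of all genes moved to 0.09.

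In the list of iodide and thyroid hormone handling, 4 of 8 tested genes were called lower and 2 higher, with a median of -0.31. Ttr, which encodes the thyroid hormone and retinol carrier transthyretin and is also an islet gene, fell from 161 ± 17.4 CPM to 37.9 ± 2.61 CPM (SD, n = 5), a log2 fold change of -2.09 (SE 0.08). Slc16a10, a transporter of aromatic amino acids and thyroid hormone, fell by 1.07 on the log2 scale, and Thrb, a thyroid hormone receptor, fell by 0.88. Klf9, a transcription factor induced by thyroid hormone in several tissues, rose by 0.71. Dio1, a deiodinase of thyroid hormone and not of iodotyrosines, was at 1.99 ± 0.412 CPM in WT and 1.70 ± 0.639 CPM in KSR23 (SD, n = 5) and was not called (adjusted p = 0.505). Dio2 and Dio3 had too few counts to be tested, with at most 7 and 29 counts in a library.

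In the list of galanin receptors, other neuropeptides and peptide processing, 10 of 23 tested genes were called lower and 6 higher, with a median of -0.14. Penk, the precursor of enkephalins, rose from 73.3 ± 6.25 CPM to 250.4 ± 47.8 CPM (SD, n = 5), a log2 fold change of 1.77 (SE 0.11). The galanin receptor gene Galr3 rose by 1.59 from a low level of 0.423 ± 0.135 CPM to 1.27 ± 0.334 CPM. Galr1 was at 1.28 ± 0.368 CPM and 1.11 ± 0.294 CPM and was not called (adjusted p = 0.636), and Galr2 had at most 6 counts in a library and was not tested. Sstr3, a somatostatin receptor, rose by 1.16, but was not called in 6 of 19 alternative analyses (adjusted p up to 0.109). Calca, the gene of calcitonin and its related peptide, fell by 1.01, but was not called in 5 of them (adjusted p up to 0.0782).

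In the list of vitronectin receptors and plasminogen activation, 7 of 15 tested genes were called higher and 1 lower, with a median of 0.26. Itgb6, an integrin subunit of epithelia, rose from 2.16 ± 0.801 CPM to 7.08 ± 1.15 CPM (SD, n = 5), a log2 fold change of 1.70 (SE 0.20). Plaur, the urokinase receptor that also binds vitronectin, rose by 1.08. Serpinf2, the inhibitor of plasmin, rose by 0.99, and Spp1, the adhesive protein osteopontin, rose by 0.79 from 753 ± 29.3 CPM to 1306 ± 59.4 CPM. The called gene that was lower is Itgb3, the partner of the αv subunit in the vitronectin receptor, at -0.52, and the αv gene Itgav at 0.26 was not called (adjusted p = 0.0881). Both were named after their values were seen.

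In the list of hepcidin and iron handling, 9 of 27 tested genes were called higher and 4 lower, with a median of 0.05. Trf, the iron carrier transferrin, rose from 129 ± 12.3 CPM to 495 ± 143 CPM (SD, n = 5), a log2 fold change of 1.95 (SE 0.15). Cp, the ferroxidase ceruloplasmin, rose by 1.77, Tmprss6, a protease that restrains hepcidin expression in liver, rose by 1.54, and Slc39a8, a metal importer, rose by 1.33. Slc40a1, which encodes ferroportin and was named after its value was seen, fell by 0.35 from 66.7 ± 4.70 CPM to 52.5 ± 6.70 CPM, but was not called with libraries scaled by their total alone (adjusted p = 0.0763). That scaling gave 1 gene of this list called lower and 11 higher, and without WT replicate 4 or KSR23 replicate 5 the count of lower genes was 2.

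In the list of the p24 family and other cargo receptors of the early secretory pathway, 7 of 23 tested genes were called lower and 2 higher, with a median of -0.11. The count of lower genes was 3 without KSR23 replicate 4 and 4 without WT replicates 2, 3 or 4, without KSR23 replicate 3 or with a replicate block, and that of higher genes was 0 without KSR23 replicate 5. Tmed6, a p24 protein of high level in pancreas, fell from 537 ± 31.1 CPM to 340 ± 32.1 CPM (SD, n = 5), a log2 fold change of -0.66 (SE 0.07). Tmed10 fell by 0.19, but was no longer called in 9 of 19 alternatives (adjusted p up to 0.274). Tmed1, Tmed2, Tmed3, Tmed4, Tmed5, Tmed7, Tmed8 and Tmed9 lay between -0.17 and 0.06 and were not called. The distance from these genes to Tmed11 at -3.38 was not tested, since Tmed11 was chosen by its fall. Cnih1, a cargo receptor of the cornichon family, fell by 0.42, Kdelr1, a receptor that returns proteins to the endoplasmic reticulum, fell by 0.28, and Ergic1, a protein of the compartment between endoplasmic reticulum and Golgi, fell by 0.22. Scaling by total counts alone gave a different split, in which 2 genes of this list were called lower and 3 higher, and Kdelr1 (adjusted p = 0.0716) and Ergic1 (adjusted p = 0.170) were not called.

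**Figure D3:**
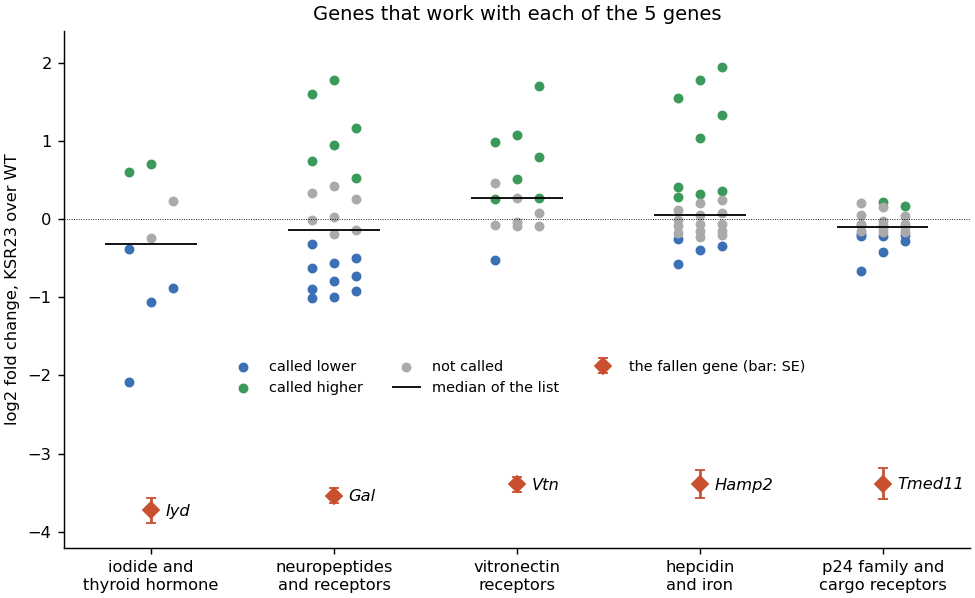
Log2 fold change of KSR23 over WT for each tested gene of 5 lists (circles, coloured by call at adjusted p under 0.05) with the list median as a line, and for the gene that heads each list (red diamond, bar: SE). List members ran from -2.09 for Ttr to 1.95 for Trf, while the 5 genes lay at -3.38 or lower.

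The genes next to the members on the chromosomes were looked at as well. Of 19 tested genes, the nearest up to 2 on each side, 1 was called lower, 4 higher and 14 were not called, against 31% of all genes tested that were called in either direction. The members were chosen as the largest falls, so their distance from their neighbours is set by the rule and nothing is read from it. The one that was lower was Gm15446, 1128 kb from Tmed11, at -0.64 (adjusted p = 0.0446). Near Vtn, Sarm1, which lies 1.34 kb away, was at -0.58 (SE 0.23) and was not called (adjusted p = 0.0704), with 1.56 ± 0.403 CPM in WT and 1.03 ± 0.121 CPM in KSR23 (SD, n = 5). Its log2 CPM did not overlap between the groups, and 8.74% of all genes tested were lower without overlap. The other genes near Vtn, Slc46a1 at 0.17, Tmem199 at -0.06 and Poldip2 at 0.14, were not called.

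Near Gal, Cpt1a at 0.04, Mrpl21 at -0.03, Ppp6r3 at -0.17 and Lrp5 at 0.32 were not called. Near Hamp2, Usf2 at -0.01, Ffar1 at 0.13 and Ffar2 at -0.40 were not called and Lsr was called higher at 0.34. Near Iyd, Ppp1r14c at 0.03 and Plekhg1 at -0.17 were not called and Mthfd1l was called higher at 0.34. Near Tmed11, Fgfrl1 at 0.29 and Crlf2 at 0.62 were called higher and Idua at 0.22 was not called. The call of Mthfd1l was lost in 10 of 19 alternatives, that of Gm15446 in 11 and that of Fgfrl1 in 4, with adjusted p up to 0.160, 0.137 and 0.0619.

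**Figure D4:**
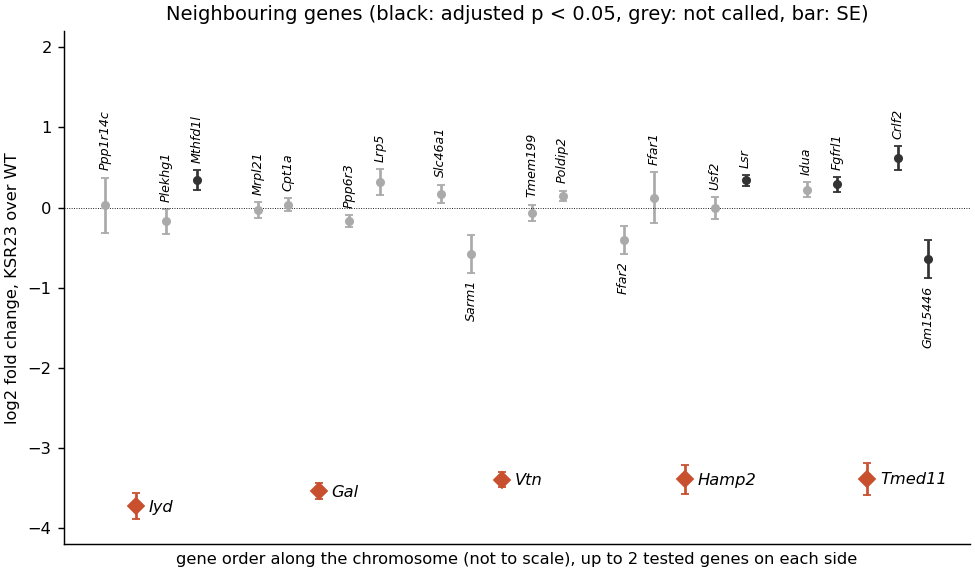
Log2 fold change of KSR23 over WT, with its SE as a bar, for the 5 genes (red diamonds) and up to 2 tested genes on each side of them in chromosome order, black where the adjusted p was under 0.05. All 19 neighbours lie between -0.64 and 0.62, and the 5 genes, chosen for their falls, at -3.38 or lower.

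The pancreas was checked by its markers, and other cell types were looked for. Acinar markers made up most of the marker RNA, with a sum over 12 genes of 206586 to 230483 CPM in WT and 120337 to 152482 CPM in KSR23. Of these 12 genes 9 were called lower, and the sum, which a few very abundant genes set, fell 1.57-fold. Among its 3 most abundant genes, Cela2a fell by 1.13 and Cpb1 by 0.54 on the log2 scale, and Ctrb1 at -0.13 was not called. The largest falls of the list were named after their values were seen: Cela1 fell by 2.53, Pnlip fell by 1.85 and Cpa1 fell by 1.37. The sum of 12 islet markers went from between 7866 and 11133 CPM to between 4791 and 6011 CPM, with 8 genes called lower and 1 higher. Its 3 most abundant genes, Ins2, Gcg and Ins1, fell by 0.75, 1.12 and 0.39, the last with a call that was lost in 5 of 19 alternatives (adjusted p up to 0.0982). The sum of 8 duct markers was 255 to 313 CPM in WT and 353 to 382 CPM in KSR23, with 4 of 7 tested genes called higher. Sox9 rose by 0.86 and Krt7 by 0.71, and Krt19 at -0.05 was not called.

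Hepatocytes are the main source of vitronectin and hepcidins in the body, so their markers were examined. Their sum over 12 genes was 8.67 to 13.7 CPM in WT and 21.5 to 32.2 CPM in KSR23. F2, the prothrombin gene, rose by 2.05 from 5.36 ± 1.14 CPM and set this difference: without it, a step chosen after its value was seen, the other 11 markers summed to 4.19 to 7.63 CPM in WT and 2.91 to 9.21 CPM in KSR23. Alb fell by 0.83 from 4.52 ± 1.16 CPM to 2.48 ± 0.987 CPM (SD, n = 5), but was not called without WT replicate 1 (adjusted p = 0.0503). Apoa1 at 1.57 was not called (adjusted p = 0.0722), with 148 counts in KSR23 replicate 2 and 7 to 58 in the other KSR23 libraries, and was at 0.44 without that replicate. It was called in 3 of the fits without 1 library, those without WT replicate 5, KSR23 replicate 1 or KSR23 replicate 3. Of the other 9 markers, all too scarce to be tested, Cyp2e1, Hpd, Cps1 and Apoc3 had mean levels of at most 0.0924 CPM in either group, while Ahsg went from 0.129 to 0.350 CPM in WT to 0.622 to 2.73 CPM in KSR23. These 5 were named after their values were seen. What part hepatocytes have in the levels of Vtn and Hamp2 was not tested.

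Neurons and glia, in which Gal is expressed in many tissues, were looked at for Gal. Of 12 tested markers 0 were called in edgeR's quasi-likelihood test, and 2 had an unadjusted p under 0.05. Elavl4 was called higher in DESeq2, in the likelihood ratio test and without WT replicate 3 or 5. Scaling by total counts alone gave 2 called higher. Their sum was 30.7 to 37.0 CPM in WT and 30.8 to 42.8 CPM in KSR23, with Stmn2 at 0.14, Snap25 at -0.03 and Ret at -0.04 as the 3 most abundant. Leukocyte markers summed to 103 to 118 CPM in WT and 136 to 317 CPM in KSR23, with 7 of 10 tested genes called higher and 1 lower, and its most abundant genes Csf1r, Emr1 and Cd68 rose by 0.61, 0.55 and 0.59. The largest rises, named after their values were seen, were S100a9 by 2.48 and S100a8 by 2.38, and they were 1.54 and 1.47 without KSR23 replicate 3, the library with the leukocyte sum of 317 CPM.

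The sums for endothelium, mesenchyme and mesothelium overlapped between the groups. Of 6 tested endothelium markers 2 were called lower and 2 higher, of 8 mesenchyme markers 1 and 1, and of 5 mesothelium markers 1 and 0. Of the most abundant genes of these lists, Kdr and Tie1 rose by 0.31 and 0.33, and Upk3b fell by 0.25 with a call lost in 7 of 19 alternatives (adjusted p up to 0.192). Pecam1 at -0.04, Col1a1 at -0.19, Col1a2 at -0.17, Msln at 0.02 and Lrrn4 at -0.30 were not called, nor was Col3a1 (adjusted p = 0.989). The other called genes were named after their values were seen: Cdh5 fell by 0.47 and Acta2 by 0.48, and Pdgfrb rose by 0.35. Tek fell by 0.27, but its call was lost in 10 of 19 alternatives (adjusted p up to 0.219).

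**Figure D5:**
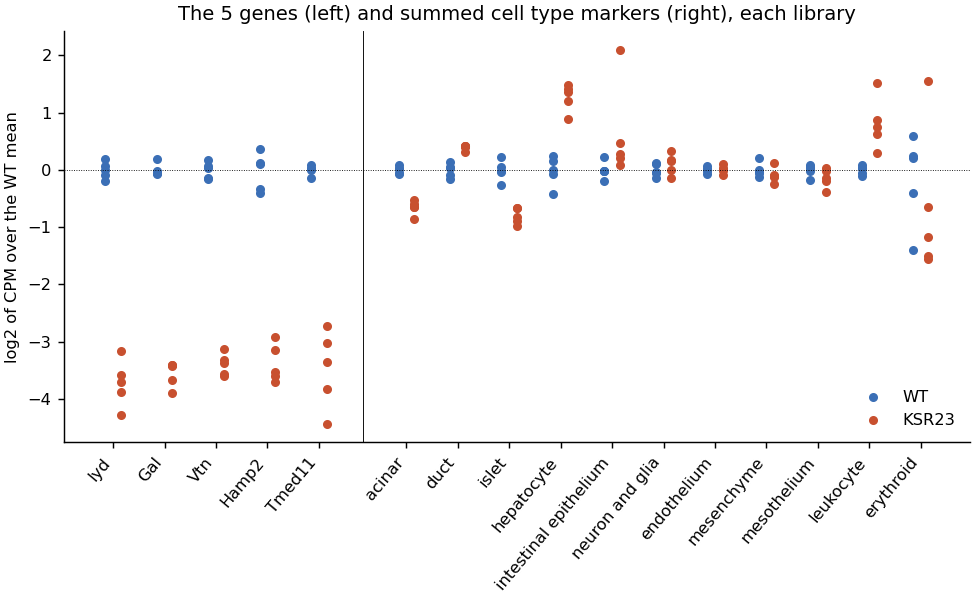
Log2 of CPM relative to the WT mean for the 5 genes (left) and for the summed markers of 11 cell types (right) in 5 WT (blue) and 5 KSR23 libraries (red). The acinar sum, which fell 1.57-fold, and the islet sum lie under the WT mean in every KSR23 library, the leukocyte sum is higher, and so is the hepatocyte sum, through F2. The 5 genes were chosen for their falls.

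Some libraries stood apart in other markers. The sum of intestinal epithelium markers was 20.8 CPM in KSR23 replicate 2 and 5.15 to 6.74 CPM in the other KSR23 libraries, and that replicate was also the lowest for Tmed11. Without it the log2 fold change of Tmed11 was -3.21. Among the intestinal markers Apoa4 rose by 2.56, but its call was lost in 7 of 19 alternatives (adjusted p up to 0.706) and its log2 fold change was -0.22 without that replicate, Slc5a1 at 0.26 was not called, and Fabp2 was too scarce to be tested. The sum of erythroid markers was 199 CPM in KSR23 replicate 3, against 22.8 to 42.9 CPM in the other KSR23 libraries, and that replicate was the highest for Iyd and Hamp2 and the lowest for Gal. Its leukocyte sum was the highest too. Of 4 tested erythroid markers 0 were called in edgeR's quasi-likelihood test or in DESeq2, and 0 had an unadjusted p under 0.05, with Alas2 at -0.23 and Slc4a1 at 0.12, but without that replicate all 4 were called lower. Hbb-bt and Hba-a1 were at 0 in every library, where Alas2 held 548 to 1903 counts. Reads that aligned at more than 1 place were not counted, so this 0 is not read as an absence of globin RNA. The part of these markers in the results was not tested.

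The genes of the cassette's subunits were examined in every library, where reads of the cassette and of the mouse's own genes cannot be told apart. Il23a, the p19 gene, was at 1 to 9 counts in the WT libraries and 21 to 48 in the KSR23 libraries, or 0.179 ± 0.102 CPM and 1.07 ± 0.138 CPM (SD, n = 5), too few in WT to be tested. Il12b, the p40 gene, had 0 to 7 counts in WT and 3 to 13 in KSR23, which overlap. The gene counts of a library added up to between 16715976 and 57784136, so 3 counts, used as the floor, stood for 0.0535 to 0.168 CPM, well under every value of the 5 genes.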

How the data were processed

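Pancreas RNA of 5 WT and 5 KSR23 mice was analyzed, 1 library per sample. The authors made oligo-dT primed, PCR-amplified libraries without strand or molecular identifiers, aligned single-end 75-base reads to mm10 with TopHat2 2.1.0 and deposited raw counts per gene from HTSeq 0.6.1p1, before their low-count filter and edgeR test. The annotation release and strand setting are not given in the sources used here. The 5 tallies of unassigned alignments in each file were left out of library sizes. Alignments on no gene were 4.89% to 6.36% and ambiguous ones 0.850% to 1.27% of the reads on genes together with these 2 tallies. Alignments at more than 1 place were a further tally and are left out of these shares. In WT libraries they numbered 28599887 to 38736114, against 26830235 to 33189132 gene counts. In KSR23 libraries they numbered 11156558 to 39778810, against 16715976 to 57784136. The tally exceeded the gene counts in every WT library and in no KSR23 library, a difference whose cause was not tested.

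A gene was tested if no library held fewer than 5 of its counts, which left 13882 of 24062. Scaling was by TMM in edgeR 4.0.16 (R 4.3.3), CPM are counts per 1000000 on these library sizes, and log2 CPM use a prior count of 2. KSR23 was set against WT by the quasi-likelihood F test of edgeR, and p-values were adjusted by the Benjamini-Hochberg method, with a threshold of 0.05. The standard error of a log2 fold change is its size over the square root of F. The scripts were tested on simulated data with known fold changes. Positions, transcripts and unique 75-base windows come from GENCODE M21, with 99.2% of tested genes matched, and promoters from RefSeq.

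The members and the lists of related genes and markers were chosen with earlier results of these data known, so no p is given for the members. Named besides them are the next 5 falls, the nearest 2 tested genes on each side, the 3 genes most alike, Il23a and Il12b, the 4 called genes with the largest change in each related list with the p24, galanin receptor, hepcidin and deiodinase genes, and the 3 most abundant genes of each marker list. Alternatives were edgeR's likelihood ratio test, DESeq2 1.42.0, other scalings and filters, a test against a log2 fold change of 1, a replicate block, and fits without each library in turn. Counts of lost calls run over the 19 alternatives other than the test against 1. Numbers 1 to 5 in the labels are shared by the groups. Values of some listed genes are not reported here. No 2 libraries of a group agreed within sampling noise.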

Additional observations from a re-analysis of the deposited data

Results flagged for a closer look

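Of 36 groups of 5 libraries examined, 5 held a library whose gap to the nearest other was over 0.71 of the range (Dixon's test). Chance gives about 1.80 for normally distributed values. That rate does not apply to genes of few counts such as Il12b, with 0 to 7 counts in WT. Gal was at 76.1 CPM in WT replicate 1 and at 63.4 to 66.3 CPM in the other WT libraries, so that library lies further above the KSR23 libraries than the others. Il12b, the p40 subunit gene, was at 0.240 CPM in WT replicate 2 and at 0 to 0.0645 CPM in the other WT libraries. The summed duct markers were at 353 CPM in KSR23 replicate 2 and at 374 to 382 CPM in the other KSR23 libraries. The summed intestinal epithelium markers were at 20.8 CPM in the same library and at 5.15 to 6.74 CPM in the others. The summed erythroid markers were at 199 CPM in KSR23 replicate 3 and at 22.8 to 42.9 CPM in the others.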

How the results depend on the processing

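The log2 fold changes of the 5 genes kept their direction in all 19 alternatives that refit them, from -3.83 to -3.60 for Iyd, -3.57 to -3.45 for Gal, -3.47 to -3.30 for Vtn, -3.48 to -3.28 for Hamp2 and -3.62 to -3.21 for Tmed11. The SD of a difference between 1 KSR23 and 1 WT library was 0.42, 0.25, 0.24, 0.45 and 0.67 in that order. For Tmed11 most of it is the KSR23 spread of 0.66, and its SD within WT was 0.09. Each shift was smaller than this SD, but leaving out 1 of 5 libraries moves a group mean by only a part of it. Nothing is read from that comparison. Without KSR23 replicate 4, Tmed11 moved from -3.38 to -3.62, the only gene of the 5 to shift by more than its SE, which was 0.20. Their standing as the 5 largest falls depended on the filter: without a filter on low counts 0 of them were among the first 5, led by Pdyn and Scn4b, and with edgeR's filterByExpr 1 was, Iyd. With each library left out, 4 to 5 of them were. Scaling by total counts alone left 1164 genes called lower. In edgeR's test against a log2 fold change of 1, 212 genes were called, 61 lower and 151 higher, with 5 related genes and 0 neighbours among them, where the reported test called 52 and 5. Of the 19 neighbours, 3 were called without a filter, with filterByExpr and with the replicate block. With each library left out, 2 to 6 neighbours, 42 to 50 related genes, and 3497 to 4173 genes in all were called, 1651 to 1974 lower and 1846 to 2210 higher. The causes were not tested, apart from the filters, which by construction change the genes ranked. Same-numbered libraries did not deviate together, with correlations of deviations from -0.11 to 0.07, and 1 of 5 correlated best with its own number, so the numbers were not taken as pairs. With the replicate block 3749 genes were called, 1751 lower and 1998 higher. Depth limits the KSR23 values of Iyd and Hamp2 most, with 31 to 76 counts per library.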
